A study of Drosophila melanogaster with 24 samples.

Results

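Odorant-binding protein genes are the genes of Drosophila melanogaster whose FlyBase symbol is Obp followed by a digit. Among the 17611 genes of the deposited counts, 51 met this rule, matched through their FBgn identifiers. The counts came from whole-fly poly(A) RNA in 18 libraries, 3 in each of 6 groups of w1118 flies, and each bottle held equal numbers of males and females. On day 7, at 14 days after eclosion, CTRL flies had been fed DMSO and PD flies rotenone, a mitochondrial complex I inhibitor used to model Parkinson's disease, for 7 days. On day 14, at 21 days after eclosion, CWOFP and CWFP flies came from the DMSO arm and PWOFC and PWFC flies from the rotenone arm. CWFP flies had received fecal microbiota transplantation (FMT) from PD flies and PWFC flies from CTRL flies, in both cases for 7 days, whereas CWOFP and PWOFC flies had received none. According to the methods, donor flies were ground in PBS and the material was added to medium without rotenone. Flies without FMT stayed on yeast-glucose medium, and no control feed of ground flies is described. Effects of the microbiota and of the other fly material therefore cannot be told apart. The labels give a rotenone concentration of 250 µM in a protocol text that all groups share, and CTRL flies are labelled as fed DMSO. Rotenone feeding is a chemical model in flies, and all 6 groups share the one strain. Day 7 and day 14 libraries share no group, so age, time after treatment and any difference in handling between the days cannot be told apart.

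Odorant-binding proteins are small secreted proteins that carry hydrophobic ligands through the fluid around sensory neurons. Support cells of the antenna and of taste bristles make many of them, and odorant and ionotropic receptors sit on the neurons that those cells surround. Other members are made far from the nose: some are transferred to females in seminal fluid, Obp99b is known from male fat body and Obp44a from glia. RNA of a whole fly adds these sources together, so fewer cells of a type and less RNA per cell cannot be told apart.

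The libraries held between 17920498 and 29165130 counts, with a median of 21859942. The members together took 0.0511% to 0.198% of a library's counts, with the highest shares in the PD group. CWFP replicate 1 stood apart in male products. Its 11 accessory gland markers summed to 38.0 CPM (counts scaled to a common library size), against 1069 and 1511 CPM in the other CWFP libraries, and its testis markers summed to 28.9 CPM, against 585 and 785 CPM. One accessory gland marker, Acp95EF, was at 0 in every library, and in CWFP replicate 3, where eggshell markers summed to 1308 CPM, 2 of 11 eggshell markers were at 0. The markers of photoreceptors and neurons and the 3 yolk protein genes were read in every library, so heads and females were present in each. Replicates of a group differed beyond sampling noise in all 18 pairs, so none was counted as a repeat of another. The p-values below measure the spread between these libraries, which the labels call replicates without saying that they came from separate bottles.

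Of the 51 members, 46 had at least 1 count and 5 (Obp47b, Obp50b, Obp50c, Obp57d and Obp85a) had none in any library. A count of 0 over all 18 libraries allows a level of up to 0.00743 CPM, at 3 counts, and this floor covers counting error only. Obp50b and Obp50c share exons in the annotation, and exons of Obp57d and Obp47b overlap those of Cpr57A and CG7741, so for these members a 0 may also depend on how shared reads were assigned. Another 11 members never reached 10 counts in a library. The filter on low counts passed 28 members in all 4 comparisons of the study and 31 in at least 1, while 20 passed in none. Members that passed are those with a signal, and their counts are given as shares of the members tested.

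The family is clustered in the genome. In the dm6 annotation 29 members lie on 2R, 12 on 3R, 6 on X, 2 on 2L and 2 on 3L, and 31 of them have another member within 10000 bp, in 9 clusters. Obp19d (FBgn0011280) lies at chrX:20419613-20420979 on the plus strand, 649 bp from Obp19c in a cluster of 4 with Obp19a and Obp19b. Obp83a and Obp83b, the antennal genes once named OS-F and OS-E, lie 932 bp apart on 3R. The library kit does not mark strand. Reads from exons that overlap a gene on the other strand, as for Obp99c with Gycalpha99B, Obp44a with Pabp2, Obp59a with CG30259, Obp69a with CG32104, Obp56e with asRNA:CR44509, and Obp83cd with Obp83ef, therefore cannot be assigned with certainty to one gene of the pair.

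Per kilobase of exon, Obp99c was the most abundant member, with a mean of 427 RPKM (CPM per kilobase of exon) over the 18 libraries and a range of 259 to 611. It was above Obp56g, the next in order, in all 18 libraries. Obp56g had a mean of 171 RPKM, Obp56d 165 RPKM, Obp51a 131 RPKM and Obp19d 87.7 RPKM. These were followed by Obp99a at 67.9 RPKM, Obp19c at 57.3 RPKM, Obp57c at 54.0 RPKM, Obp44a at 53.1 RPKM and Obp56a at 42.0 RPKM. The order below Obp99c was not fixed. Obp56g exceeded Obp56d in 8 of 18 libraries, Obp19d exceeded Obp99a in 10 of 18, and Obp57c exceeded Obp44a in 11 of 18, so these neighbours did not differ beyond their spread between libraries. The list led by abundance mixed genes of several organs: Obp56g and Obp51a are seminal fluid genes, Obp56d and Obp99a are known from antennae, and Obp19d is known from taste organs and antennae.

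**Figure D1:**
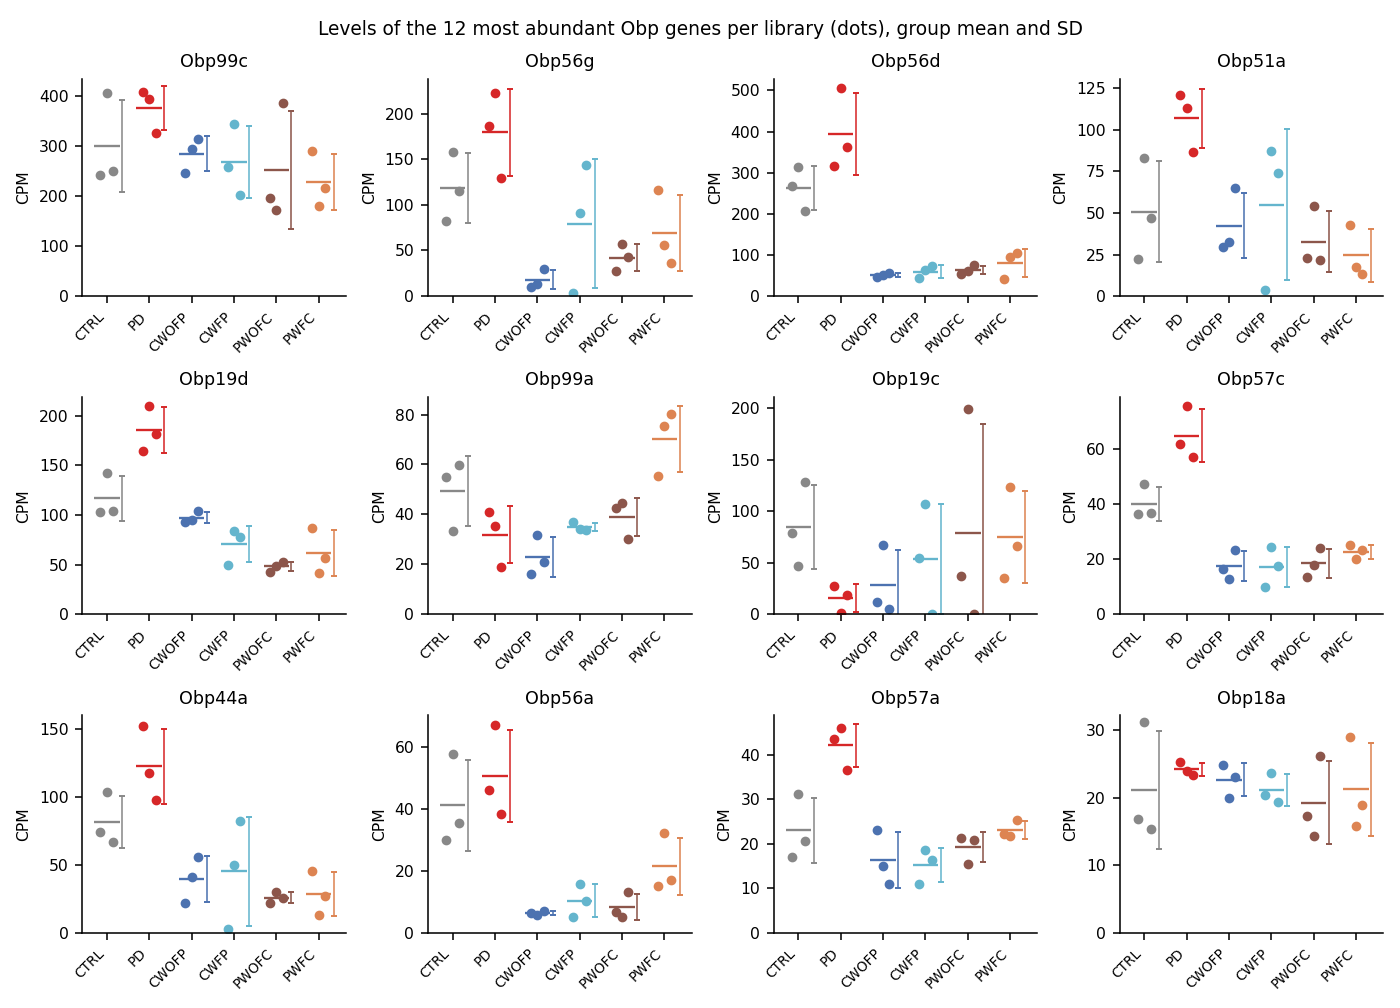
Level in CPM of the 12 members with the highest mean RPKM, 1 panel a gene, with 1 dot a library, a line for the group mean and a bar for its SD (n = 3), cut at 0 where it would go below. Obp56d lies at 206 to 505 CPM in the day 7 groups and at 42.5 to 104 CPM in all day 14 groups, and Obp19c spans 0.486 to 199 CPM.

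Obp99c, on 3R, was read at 243, 407 and 251 CPM in CTRL, at 409, 395 and 327 CPM in PD, and at 173 to 387 CPM in the 4 day 14 groups. In each of the 4 comparisons the groups overlapped and edgeR did not call it, with log2 fold changes between -0.31 and 0.33.

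Obp19d was read at 103, 143 and 104 CPM in CTRL libraries and at 164, 210.1 and 181 CPM in PD libraries. On day 14 it was read at 93.0, 95.1 and 104 CPM in CWOFP, at 49.9, 84.0 and 77.5 CPM in CWFP, at 43.0, 49.1 and 52.5 CPM in PWOFC and at 87.2, 41.3 and 56.6 CPM in PWFC. Every PD library was above every CTRL library, and every PWOFC library was below every CWOFP library. In flies without FMT the rotenone arm was thus the higher one on day 7 and the lower one on day 14. In flies with FMT the PWFC and CWFP libraries overlapped.

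The first comparison of the study asks what rotenone feeding changed by day 7. Between PD and CTRL flies 2 of 31 members tested rose and none fell, where 3.17% of all 12643 genes tested were called by edgeR's quasi-likelihood test at a Benjamini-Hochberg adjusted p under 0.05. The members called were Obp49a, a protein of taste support cells that binds bitter compounds and damps sweet responses, and Obp59a, known from the humidity-sensing part of the antenna. Short of the threshold, the fitted log2 fold change was above 0 in 24 of the 31 members and below 0 in 7, with a median of 0.58 beside 0.05 over all genes tested. By unadjusted p under 0.05 there were 15 members, beside 4749 of all 12643 genes tested. DESeq2 called 11 of the 46 members it tested, beside 18.7% of all the genes it tested.

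Obp49a was read at 18.9, 27.7 and 17.2 CPM in CTRL and at 37.3, 54.0 and 43.6 CPM in PD, with no overlap. Its log2 fold change was 1.08 (SE 0.222, n = 3 and 3, edgeR adjusted p = 0.0401). Obp59a was far scarcer, at 0.885, 1.58 and 0.774 CPM in CTRL and at 2.54, 3.21 and 2.95 CPM in PD, again with no overlap. Its log2 fold change was 1.40 (SE 0.315, edgeR adjusted p = 0.0484). Both genes sat close to the threshold. Leaving out any library other than CTRL replicate 2 took both calls to an edgeR adjusted p between 0.0510 and 0.181. Without CTRL replicate 2 the count of members called rose to 23 of 32, beside 5361 of all 12806 genes tested.

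Other sensory members had positive values short of the threshold. Among the 9 members of the antennal list, 8 were tested, 7 had a log2 fold change above 0 and 1 of these was called. The second highest of all members was Obp19a, at 2.62, 3.85 and 1.83 CPM in CTRL and 6.15, 9.80 and 4.95 CPM in PD, with a log2 fold change of 1.32 (SE 0.337, edgeR adjusted p = 0.0517). Of the 6 genes of the taste list, 4 were tested, and all 4 had positive values with 1 call. Obp19d, the most abundant of them, had a log2 fold change of 0.67 (SE 0.183, edgeR adjusted p = 0.0561), and with DESeq2 its adjusted p was 0.0160. Obp57c, at 36.2, 47.2 and 36.5 CPM in CTRL and 61.6, 75.4 and 57.1 CPM in PD, had a log2 fold change of 0.70 (SE 0.179, edgeR adjusted p = 0.0518). The groups did not overlap for any of these 3 genes.

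The seminal list gave 6 of 7 positive values and no call by edgeR, while DESeq2 called Obp51a (adjusted p = 0.0255). Obp51a was read at 22.3, 82.9 and 47.0 CPM in CTRL and at 121, 113 and 87.0 CPM in PD, and Obp56g at 82.5, 158 and 115 CPM and at 186, 223 and 129 CPM. The lowest PD library was above the highest CTRL library for Obp51a and within the CTRL range for Obp56g. The summed accessory gland markers went the other way, at 447 to 578 CPM in CTRL and 284 to 366 CPM in PD, while the summed testis markers were at 358 to 538 CPM and 657 to 953 CPM.

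The lowest members were Obp19c, with a log2 fold change of -2.44 (SE 1.13, edgeR adjusted p = 0.178), and the male fat body gene Obp99b, with -1.05 (SE 0.581, edgeR adjusted p = 0.215). Obp19c was read at 78.5, 47.0 and 129 CPM in CTRL and at 27.2, 0.952 and 18.5 CPM in PD. Obp99b was read at 9.31, 33.5 and 32.7 CPM in CTRL and at 21.2, 7.26 and 7.78 CPM in PD. PD replicate 2 was far below the others of its group for Obp19c, and for Obp99b both CTRL replicate 1 and PD replicate 1 stood apart, with a log2 fold change of -1.74 without the latter. Neither gene passed the test. Over all groups Obp19c was the most uneven abundant member, with 0.486 CPM in CWFP replicate 3 and 0.721 CPM in PWOFC replicate 3 against 107 and 199 CPM in the second libraries of those groups. In 5 of the 6 groups, all but PD, the library lowest in Obp19c was also the lowest in summed eggshell markers, which stood at 1308 CPM in CWFP replicate 3 and 5849 CPM in PWOFC replicate 3. The part of egg-stage differences between libraries in Obp19c was not tested.

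Markers of other tissues moved between PD and CTRL libraries as well. Of 10 photoreceptor markers 5 rose, with a median log2 fold change of 0.76 over the 10, and their summed level was 2467 to 3162 CPM in CTRL and 4457 to 5284 CPM in PD. All 8 neuron markers had positive values with a median of 0.39 and no call. Of 11 eggshell markers 4 fell, with a median of -2.70, and their summed level was 8700 to 15584 CPM in CTRL and 1784 to 1953 CPM in PD. The part of these tissue shares in the values of the Obp genes was not tested. Among 12 partners of the family in olfaction, 11 were tested and 1 rose, EbpIII, a protein of the insect chemosensory protein family first named from the ejaculatory bulb, from 721, 1072 and 648 CPM to 1597, 1886 and 1388 CPM (log2 fold change 1.00, SE 0.222, edgeR adjusted p = 0.0463).

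On day 14 PWOFC flies, with a past course of rotenone, were compared with CWOFP flies. By edgeR a single member, Obp19d, fell, of 29 tested, where 0.0407% of all 12297 genes tested were called. Its log2 fold change was -1.15 (SE 0.108, n = 3 and 3, edgeR adjusted p = 0.0227), from the library values given above. The call was lost without any 1 of the 3 PWOFC libraries, at adjusted p of 0.0741 to 0.191, and with all 18 libraries in the fit, at 0.0862, with a log2 fold change that stayed between -1.22 and -1.03 over all alternatives. Of the 29 members 21 had a value below 0, with a median of -0.52 beside -0.05 over all genes tested. By unadjusted p under 0.05 there were 12 members, beside 3097 of all 12297 genes tested. DESeq2 called 9 of the 46 members it tested, all lower, beside 8.18% of all the genes it tested.

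Most antennal genes had low values, short of the threshold by edgeR. Of 8 antennal members tested, 6 had a value below 0 and the median was -1.46. Obp83a, an antennal gene whose product is secreted around pheromone- and odor-sensing hairs, was read at 23.6, 14.7 and 22.1 CPM in CWOFP and at 7.61, 9.16 and 6.98 CPM in PWOFC (log2 fold change -1.49, SE 0.228, edgeR adjusted p = 0.109). Obp28a was read at 9.65, 6.30 and 10.6 CPM and at 3.16, 2.95 and 2.84 CPM (log2 fold change -1.71, SE 0.275, edgeR adjusted p = 0.109). Obp69a, an antennal protein linked to responses to a male pheromone, was the lowest of all, at 2.81, 1.57 and 2.85 CPM and at 0.751, 1.02 and 0.631 CPM (log2 fold change -1.74, SE 0.378, edgeR adjusted p = 0.120). For all of these the highest PWOFC library was below the lowest CWOFP library. Obp83b, the neighbour of Obp83a, had -1.42, Obp19a -1.44 and Obp59a -1.48, with edgeR adjusted p between 0.109 and 0.122. DESeq2 called all 6 of these antennal genes lower, with adjusted p from 1.61e-06 for Obp83a to 0.0181 for Obp59a.

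The antennal genes Obp56d and Obp99a did not have such values. Obp56d was read at 46.6, 51.6 and 57.1 CPM in CWOFP and at 54.6, 59.9 and 74.5 CPM in PWOFC, and Obp99a at 16.1, 31.9 and 20.9 CPM and at 42.4, 44.5 and 30.1 CPM. Both had overlapping groups and log2 fold changes above 0, at 0.14 and 0.61. The highest of all members were Obp19c at 1.31 (SE 1.81) and Obp56g at 1.09 (SE 0.448), with edgeR adjusted p of 0.658 and 0.198. Obp56g was read at 10.4, 13.7 and 29.8 CPM in CWOFP and at 27.3, 56.5 and 42.6 CPM in PWOFC, and the ejaculatory bulb markers, from the organ in which that gene is known to act, summed to 22.8 to 88.0 CPM and 195 to 287 CPM.

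Of the 11 partners tested in this comparison 10 had values below 0 and none was called. Orco, the coreceptor that all odorant receptors need, was read at 8.83, 5.10 and 9.30 CPM in CWOFP and at 3.31, 3.21 and 2.84 CPM in PWOFC (log2 fold change -1.46, SE 0.298, edgeR adjusted p = 0.120). The lush gene, an odorant-binding protein of pheromone-sensing hairs whose symbol falls outside the rule, had -1.07 (SE 0.270, edgeR adjusted p = 0.123). Eggshell markers stood at 3465 to 5786 CPM in CWOFP and 5849 to 18180 CPM in PWOFC, and testis markers at 285 to 480 CPM and 159 to 311 CPM. The part of these shares in the Obp values was not tested.

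**Figure D2:**
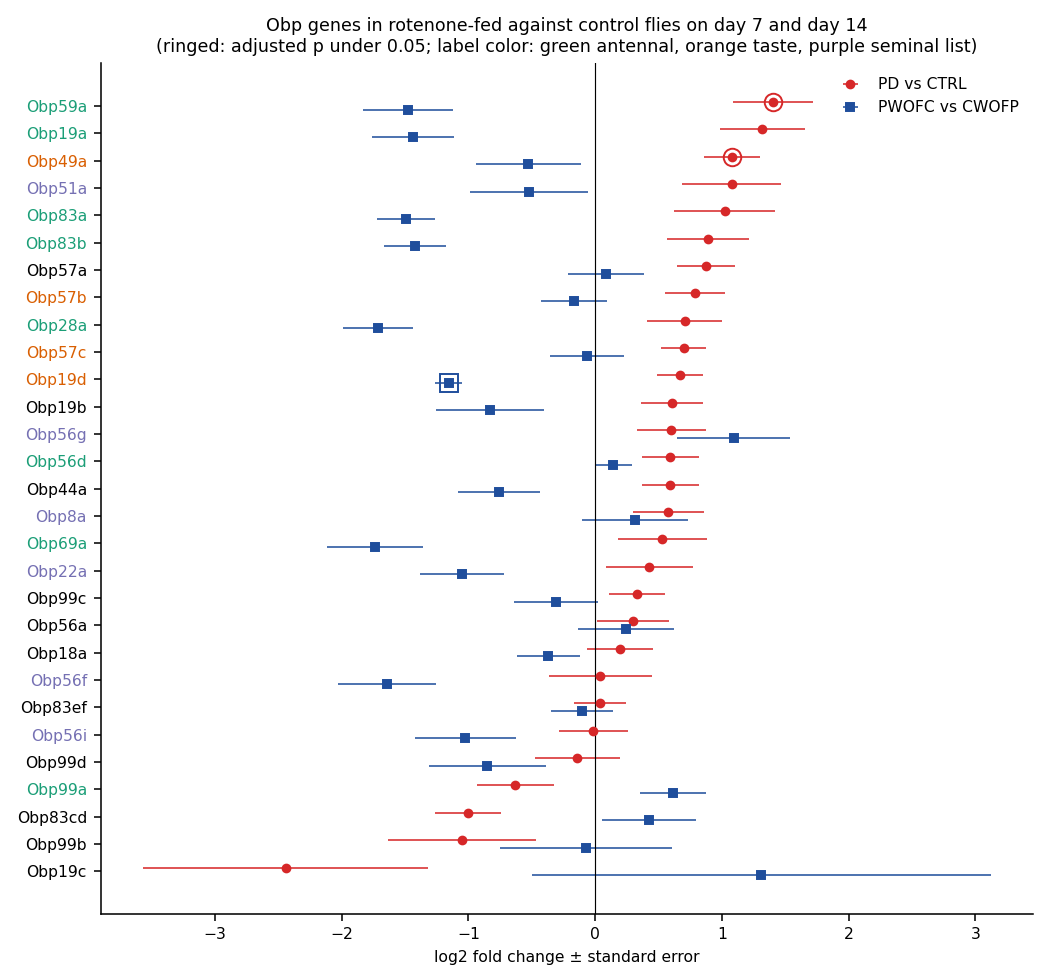
Log2 fold change with its standard error (horizontal axis) of each of the 29 members tested on both days, for PD vs CTRL on day 7 (red circles) and PWOFC vs CWOFP on day 14 (blue squares), with rings at an adjusted p under 0.05. Obp59a stands at 1.40 and -1.48, Obp19a at 1.32 and -1.44, and Obp19d at 0.67 and -1.15.

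The comparisons of day 7 and day 14 share no library, and the difference between them was tested as an interaction, (PWOFC - CWOFP) - (PD - CTRL). Of 32 members tested 13 were called, where 37.1% of all 12817 genes tested were. By direction, 11 were lower, beside 13.8% of all genes, and 2 were higher, beside 23.4%. Obp59a had the interaction -2.77 (SE 0.468, edgeR adjusted p = 0.00532), Obp19a -2.63 (SE 0.496, adjusted p = 0.00713) and Obp83a -2.39 (SE 0.532, adjusted p = 0.0104) on the log2 scale. Obp28a stood at -2.30, Obp83b at -2.19 and Obp69a at -2.15, so 6 of the 8 antennal members tested were lower, while 1, Obp99a, was higher. Obp19d had -1.70 with the smallest adjusted p of the family (SE 0.216, adjusted p = 0.00180). These 7 members kept their call in all 17 alternatives.

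The other calls did not hold as well. The taste gene Obp49a had -1.49, Obp44a -1.23 and the seminal gene Obp22a -1.36, and each lost its call in 6 to 10 of 17 alternatives. Obp83g had the lowest value, -4.17 (SE 1.24, edgeR adjusted p = 0.0239), on few reads. It lay at 4.02 CPM in CWOFP replicate 3 and at or below 1.04 CPM in the other 17 libraries. Without CWOFP replicate 3 the value was -2.64 (edgeR adjusted p = 0.0478). The call of Obp83g was lost in 3 of 17 alternatives, at an edgeR adjusted p of up to 0.0547. Obp83g passed the filter on low counts in this interaction only, and in none of the 4 comparisons of the study. The 2 higher members were Obp99a at 1.37 (SE 0.456, edgeR adjusted p = 0.0354) and Obp83cd at 1.55 (SE 0.454, edgeR adjusted p = 0.0226). Obp99a lost its call in 10 of 17 alternatives and Obp83cd in 4 of 17. Obp83cd was read at 4.16, 4.80 and 4.09 CPM in CTRL, 2.85, 1.98 and 1.66 CPM in PD, 3.46, 1.96 and 3.33 CPM in CWOFP and 6.16, 3.66 and 3.20 CPM in PWOFC. Upper quartile scaling moved the median of all genes in this test from -0.01 to -0.38. With it 13 members were called lower, beside 3089 of all 12817 genes, and none was called higher, beside 1276. Obp99a then stood at 0.96 and Obp83cd at 1.16, and neither was called. The number of members called was lowest, at 7, without PWOFC replicate 1, beside 2360 of all 13046 genes. It was highest, at 18, without CTRL replicate 2, beside 5977 of all 12990 genes.

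Partner genes that act beside the antennal members were lower in the same test in 7 of 11 tested: Orco at -1.72, lush at -1.65, the sensory membrane protein gene Snmp1 at -0.99, the ionotropic coreceptor genes Ir76b at -1.95 and Ir25a at -1.20, and the antennal genes a10 at -2.07 and a5 at -2.44, with edgeR adjusted p between 0.00781 and 0.0409. Photoreceptor markers, which lie in the head with the antennae, gave no call among 10 and a median of -0.20, and of 8 neuron markers 1 was lower, with a median of -0.66. Testis markers were lower in 7 of 7 tested, with a median of -1.58, and eggshell markers higher in 7 of 11, with a median of 4.83. The part of these shares in the interaction of the Obp genes was not tested.

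**Figure D3:**
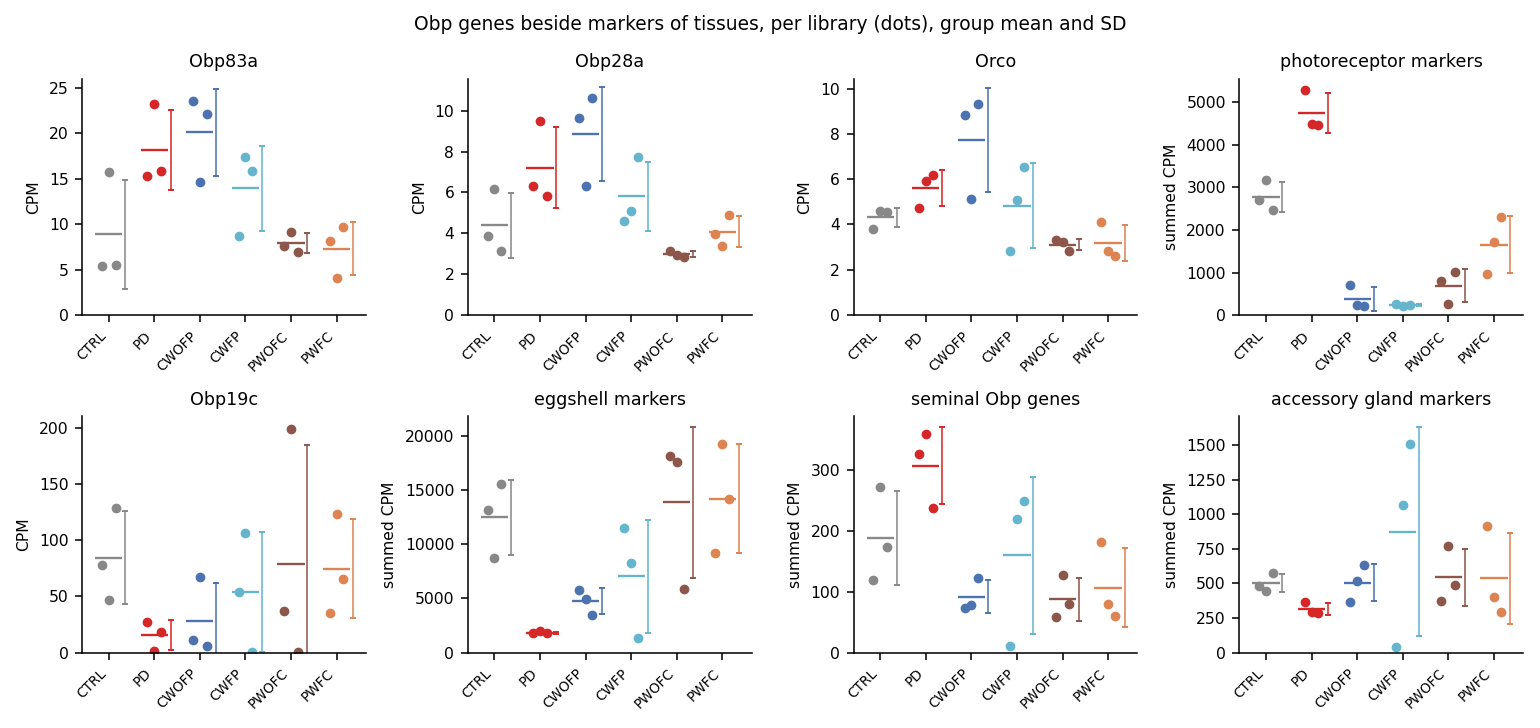
Levels per library (dots, 3 a group, with the mean and SD, cut at 0) of Obp83a, Obp28a, Orco and Obp19c in CPM, beside the summed CPM of photoreceptor, eggshell and accessory gland markers and of the seminal Obp genes. Every PWOFC library of Obp83a (6.98 to 9.16 CPM) and Obp28a (2.84 to 3.16 CPM) lies below every CWOFP library, and CWFP replicate 1 holds 10.8 CPM of the seminal Obp genes.

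Transplanting microbiota of PD flies into DMSO-fed flies called no Obp gene. Between CWFP and CWOFP flies 0 of 30 members tested were called, at 0% of all 12473 genes tested. No member had an unadjusted p under 0.05, beside 269 of all genes tested. DESeq2 called 0 members, beside 0.322% of its genes, and a fit with the replicate number as a block called 0, beside 0% of all genes. The highest log2 fold changes were those of Obp56g at 2.12 (SE 1.14) and Obp19c at 0.86 (SE 1.55), and the lowest those of Obp99b at -1.42 (SE 0.875) and Obp28a at -0.68 (SE 0.418). The edgeR adjusted p rounded to 1 for each. Obp56g was read at 3.72, 90.7 and 144 CPM in CWFP against 10.4, 13.7 and 29.8 CPM in CWOFP. The 7 seminal members summed to 10.8 CPM in CWFP replicate 1, which also had few accessory gland counts, and to 219 and 249 CPM in the others. Obp44a showed the same library apart, at 2.42, 50.2 and 82.7 CPM. Without that library there was still no call, at 0 of all 12743 genes tested. However, 6 of the 32 members then tested had an unadjusted p under 0.05, a share that was not counted over all genes. The members' median log2 fold change was then 0.13, beside -0.04 over all genes. With that library included it was -0.12, beside -0.01.

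Transplanting microbiota of CTRL flies into flies of the rotenone arm called no Obp gene either. Between PWFC and PWOFC flies 0 of 29 members were called, at 0% of all 12026 genes tested, and DESeq2 called 0, beside 0.763% of its genes. By unadjusted p under 0.05 there were 3 members, beside 496 of all 12026 genes tested. They were Obp99a at 0.86 (SE 0.198), Obp56a at 1.37 (SE 0.449) and Obp99b at -1.93 (SE 0.716), with edgeR adjusted p of 0.476, 0.962 and 0.993. Obp99a was read at 55.3, 75.5 and 80.2 CPM in PWFC and at 42.4, 44.5 and 30.1 CPM in PWOFC. Obp56a was read at 15.1, 32.1 and 17.1 CPM and at 6.56, 5.09 and 13.0 CPM. For both the lowest PWFC library was above the highest PWOFC library, whereas Obp99b overlapped, at 0.793, 2.52 and 1.33 CPM and at 1.70, 6.92 and 8.83 CPM. The lowest members were Obp99b and Obp51a, the latter at -0.41 (SE 0.557).

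The 2 FMT effects were compared as an interaction, (PWFC - PWOFC) - (CWFP - CWOFP). None of 30 members was called, at 0% of all 12707 genes tested. By unadjusted p under 0.05 there were 2 members, beside 303 of all genes, and DESeq2 called 0, beside 0.00624% of its genes. Obp28a had an interaction of 1.18 (SE 0.470, edgeR adjusted p = 1) and Obp19d 0.95 (SE 0.425, edgeR adjusted p = 1).

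The days were also compared within an arm, in flies without FMT, a choice made after the values were seen. CWOFP vs CTRL shares CTRL with PD vs CTRL and CWOFP with PWOFC vs CWOFP, and PWOFC vs PD shares the remaining groups, so their values are given side by side only. In flies without rotenone edgeR called 4 of 31 members, all lower on day 14 than on day 7, where 2.03% of all 12437 genes tested were called and 1.99% were lower. DESeq2 called 13 of the 46 members it tested, 9 lower and 4 higher, beside 4.32% of its genes. In the rotenone arm, whose day 14 flies were off rotenone, 22 of 31 were called, beside 64.1% of all 12436 genes. Of these, 21 were lower, beside 34% of all genes, and 1, Obp83cd, was higher, beside 30%.

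Obp56a, Obp56d and Obp56g fell in both arms. Obp56d went from 267, 313 and 206 CPM in CTRL to 46.6, 51.6 and 57.1 CPM in CWOFP (log2 fold change -2.27, SE 0.193, edgeR adjusted p = 0.00249), and from 315, 505 and 362 CPM in PD to 54.6, 59.9 and 74.5 CPM in PWOFC (-2.67, SE 0.200, edgeR adjusted p = 1.93e-05). Obp56a had log2 fold changes of -2.63 in both arms, and Obp56g -2.67 in the DMSO arm and -2.11 in the rotenone arm. These 3 genes lie on 2R, Obp56a and Obp56d in a cluster of 6, and the day 7 and day 14 libraries of an arm did not overlap for any of them. Obp49a had -1.89 and -3.44. In the DMSO arm the call of Obp56g was lost in 5 of 12 alternatives and that of Obp49a in 6 of 12. Of 10 photoreceptor markers 4 fell in the DMSO arm, with a median of -2.40 over the 10, and 8 fell in the rotenone arm, with a median of -2.72. Both ejaculatory bulb markers had values below 0 in the DMSO arm, with 1 call and a median of -3.02, and both fell in the rotenone arm, with a median of -1.09. In the rotenone arm 8 of 8 neuron markers and 7 of 7 testis markers tested fell, with medians of -0.97 and -1.82, and 7 of 11 eggshell markers rose, with a median of 2.72, while 4 of 11 eggshell markers fell in the DMSO arm, with a median of -1.69. The part of these markers in the Obp values was not tested.

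Other antennal genes had values of opposite sign in the arms. Obp83a had a log2 fold change of 1.24 in the DMSO arm (SE 0.445, edgeR adjusted p = 0.298) and -1.21 in the rotenone arm (SE 0.223, edgeR adjusted p = 0.000950). Obp19a stood at 1.18 and -1.52, Obp59a at 1.18 and -1.65, Obp83b at 1.17 and -1.08, and Obp28a at 1.07 and -1.29. By edgeR the fall was called for all 5 in the rotenone arm and none was called in the DMSO arm, where DESeq2 called Obp83b, Obp28a and Obp19a higher, with adjusted p of 0.0270, 0.0338 and 0.0400. Obp69a stood at 0.55 and -1.66, the latter called. Obp99a had the opposite signs, -1.04 and 0.27, and edgeR called neither. Obp19d stood at -0.20 in the DMSO arm (SE 0.168, edgeR adjusted p = 0.798) and fell by 1.96 in the rotenone arm (SE 0.154, edgeR adjusted p = 2.66e-05). The difference between the arms is the interaction given above and adds no test of its own.

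**Figure D4:**
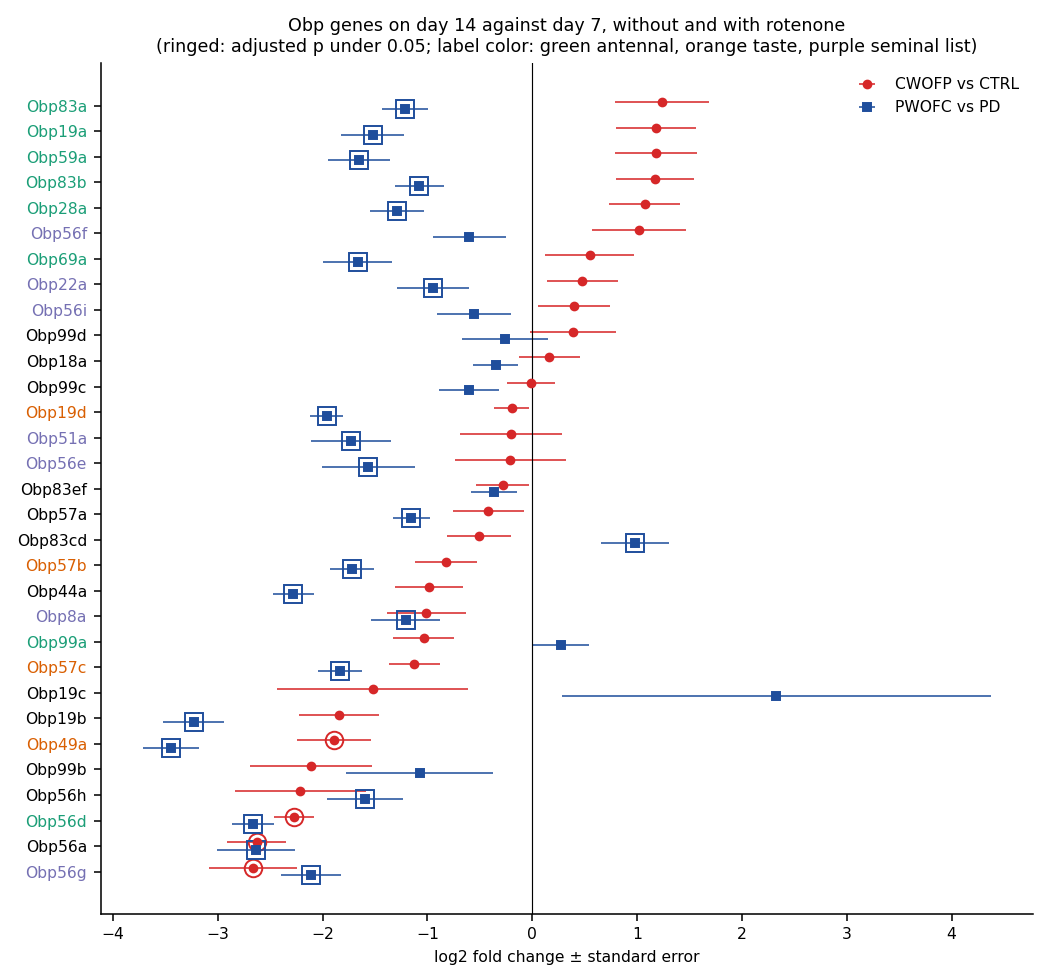
Log2 fold change with its standard error (horizontal axis) of 31 members on day 14 against day 7, for CWOFP vs CTRL (red circles) and PWOFC vs PD (blue squares), with rings at an adjusted p under 0.05. Obp83a stands at 1.24 and -1.21, whereas Obp56d stands at -2.27 and -2.67.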

How the data were processed

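Whole-fly RNA was sequenced after poly(A) selection. According to the methods, the authors trimmed reads with cutadapt, mapped them to dm6 with HISAT2 and deposited counts per gene from featureCounts. The submitters' processing notes also name FastQC, StringTie 1.3.1 and DESeq2 1.36.0. How reads mapping to several places were treated is not given in the sources used here. The 18 fly libraries were used, and 6 libraries of flies given human fecal samples were not analysed here. Symbols, positions and exon lengths came from an Ensembl annotation of the same assembly.

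Counts of each pair of groups were fitted with edgeR 4.0.16 in R 4.3.3 (TMM, filterByExpr, robust quasi-likelihood test), with Benjamini-Hochberg adjustment over all genes tested and a threshold of 0.05. Scripts were tested on simulated data. CPM were TMM-scaled over all 18 libraries, and RPKM are CPM per kilobase of merged exons. Named members are Obp19d, the 10 with the highest mean RPKM, every member called, the 2 highest and 2 lowest log2 fold changes in each comparison, and called partners. Members at 0, members named only for a position or overlap, and the receptor genes called were named after their values were seen. Members, lists and tests were chosen with earlier results of these data known. Alternatives were DESeq2 1.42.0, RLE and upper quartile scaling, no filter, all 18 libraries in the fit, a replicate block, leaving out each library, and longest-transcript lengths, which left 49 of 51 members at the same rank. Same-numbered CWFP and CWOFP libraries deviated together (r between 0.267 and 0.517 across genes, against -0.490 to 0.259 for other numbers). It was treated as a possible pairing from the data alone, since no label states it. Libraries of different numbers reached an r of 0.585 in PWFC vs PWOFC. The main fits had no block.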

Additional observations from a re-analysis of the deposited data

Results flagged for a closer look

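For 13 Obp genes in flies without FMT, the rotenone-to-DMSO log2 difference was not the same on day 14, off rotenone, as on day 7. The test was edgeR's quasi-likelihood test of the interaction with Benjamini-Hochberg adjustment. The values, day 14 minus day 7, were -2.77 for Obp59a, -2.63 for Obp19a, -2.39 for Obp83a, -2.30 for Obp28a, -2.19 for Obp83b and -2.15 for Obp69a among the antennal genes. They were -1.70 for Obp19d and -1.49 for Obp49a among the taste genes, -1.36 for the seminal gene Obp22a, -1.23 for Obp44a and -4.17 for Obp83g. The value of Obp83g rests on few reads, and that gene passed the filter on low counts in no other test. Obp99a at 1.37 and Obp83cd at 1.55 were higher. Of the 13 genes, 7 kept their call in all 17 alternatives, and Obp99a and Obp83cd were not among them. The interaction was called for 37.1% of all genes tested, so a call by itself does not set a member apart. With 3 libraries a group, no formal rule for outlying libraries was applied, but each library was left out in turn.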

How the results depend on the processing

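Between PD and CTRL flies the count of 2 members called was 11 with DESeq2 and 6 with upper quartile scaling. It was 6 without a filter on low counts, 0 with all 18 libraries in the fit and 9 with the replicate block. It was 0 to 23 with 1 library left out (23 without CTRL replicate 2). Over all genes the count of 401 was 2977, 985, 1071, 25 and 1334 in the same settings, in that order. Without CTRL replicate 2 the count over all genes was 5361 of 12806. Between PWOFC and CWOFP flies the count of 1 was 9 with DESeq2, 0 with all 18 libraries, and 0 to 2 with 1 library left out. Over all genes the count of 5 was 1293, 54 and 2 to 24 in the same settings, in that order. The members' median of -0.52 was -0.81 with DESeq2, -0.79 without a filter and -0.75 to -0.31 with 1 library left out. The PWFC vs PWOFC median of 0.16 was 0.055 to 0.41, highest without PWFC replicate 2. The interaction of rotenone with day gave 7 to 18 calls. There were 7 without PWOFC replicate 1 and 8 without PD replicate 2 or CTRL replicate 3. Over all genes 2360, 3254 and 2526 were called without these libraries in turn, and 5977 without CTRL replicate 2. CWOFP vs CTRL gave 13 calls with DESeq2 and 2 to 6 with 1 library left out, lowest without CTRL replicate 1 or 3. Over all genes its count of 252 was 685 with DESeq2 and 54 to 268 with 1 library left out. The PWOFC vs PD median of -1.29 was -1.59 with upper quartile scaling, -1.44 without a filter and -1.45 to -1.19 with 1 library left out. The cause of these shifts was not tested. Over the members called, Obp19d, those at an unadjusted p under 0.05 and the extremes of each comparison, 3 uncalled values changed sign when a library was left out: Obp19c went from -0.21 (without CWFP replicate 2) to 2.57 in CWFP vs CWOFP and from -0.71 (without PWOFC replicate 2) to 3.04 in PWOFC vs CWOFP, and Obp51a from -1.05 to 0.17 (without PWOFC replicate 2) in PWFC vs PWOFC. Upper quartile scaling moved the median of all genes to 0.23 in PD vs CTRL and -0.39 in PWOFC vs PD, from 0.05 and -0.09. In CWFP vs CWOFP, where pairing is possible but not labelled, the replicate block changed no call. In the other comparisons the numbers are shared only as names (same-number r from -0.587 to 0.338), not every library correlated best with its own number, and the block gave 1 member in PWOFC vs CWOFP, 0 in PWFC vs PWOFC and in the FMT interaction, 14 in the rotenone interaction, 5 in CWOFP vs CTRL and 24 in PWOFC vs PD. Over all genes the block called 49 in PWOFC vs CWOFP and 4190 in the rotenone interaction. It called 273 in CWOFP vs CTRL and 7151 in PWOFC vs PD. With 3 libraries a group, members under 1 CPM rest on few reads.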

Other observations

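Chemosensory receptor genes were mostly too scarce to test. Of 60 odorant receptor genes 9 to 11 were tested in PD vs CTRL, PWOFC vs CWOFP and the interaction of rotenone with day, and of 60 gustatory receptor genes 7 to 11. Between PWOFC and CWOFP flies all 9 odorant receptor genes tested had values below 0, and so did all 7 gustatory receptor genes tested, whose median was -1.28 on the log2 scale. None was called by edgeR. The 60 odorant receptor genes summed to 22.3 to 25.9 CPM in CWOFP and 15.4 to 17.1 CPM in PWOFC. The 60 gustatory receptor genes summed to 16.2 to 18.3 CPM and 8.40 to 9.10 CPM. Genes this scarce can pass the filter through the higher group alone, so no conclusion is drawn from their common sign. Of all genes tested in that comparison 45.5% had values above 0. In the interaction 2 of 11 odorant receptor genes, Or19b at -2.52 and Or59b at -1.81, and 2 of 11 gustatory receptor genes, Gr32a at -1.93 and Gr98a at -2.12, were lower, beside 13.8% of all genes. Of 16 ionotropic receptor genes tested 3 were lower, Ir76b, Ir25a and Ir75a, the last at -1.58, and 1 was higher, Ir7c at 4.12. The fat body markers gave no call in PD vs CTRL or PWOFC vs CWOFP, and the 3 yolk protein genes, made by females, fell in PD vs CTRL with a median of -1.80.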
